A study of Mus musculus with 16 samples.

Results

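The NF-kappaB family is described here by 10 genes: the 5 subunits Rela, Relb, Rel, Nfkb1 and Nfkb2, and 5 regulators that restrain or tune them, Nfkbia, Nfkbie, Nfkbiz, Bcl3 and Tnfaip3. The genes were taken by name from the gene column of the arrays, where 13 probes of 55681 carried one of the 10 names. Of these genes, 9 could be tested among 25858 genes in all, and the Rel probe was not well above background on any of the 16 arrays.

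RNA from whole mouse uterus was hybridised to 16 one-colour Agilent arrays of 60-base probes, 4 arrays in each of 4 groups. The groups were Arg260 mice given 17beta-estradiol (E2, the main circulating estrogen), Arg260 mice given vehicle (labelled PLB), wild-type (WT) mice given E2, and WT mice given vehicle. Every mouse had its ovaries removed at 4 weeks of age and was kept 2 to 3 weeks without them. E2 was injected under the skin in castor oil at 8 ug/kg, the vehicle groups got 0 ug/kg, and tissue was taken after 6 h. The genotype is named Arg260-ERalpha in the study title, which places it in the estrogen receptor alpha, and the labels used here do not give the change made at that residue or the cells that carry it. The labels number the arrays 1 to 4 within a group, and each title also carries a number of its own whose meaning is not stated. Whether each array came from a separate animal is not given in the sources used here, so p-values measure the spread between these samples, which may be technical in part.

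NF-kappaB proteins bind DNA as pairs of subunits. In resting cells inhibitor proteins of the IkappaB family hold most pairs in the cytoplasm, and signals from cytokine or pattern receptors activate a kinase complex that marks the inhibitor for destruction. Several inhibitor genes are themselves switched on by NF-kappaB, which closes a negative feedback loop, and in the uterus the pathway is known for control of cytokine, chemokine and adhesion genes.

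Each level below is the log2 signal of a probe minus the log2 75th percentile of its array, so a level of 0 means a signal equal to that percentile. Levels of different probes are not comparable with each other. A difference is E2 minus PLB, or Arg260 minus WT, on the same log2 scale, from 1 limma fit to all 16 arrays. A gene was called at a Benjamini-Hochberg adjusted p under 0.05 over all 25858 genes, and n was 4 arrays per group throughout. Between 61.6% and 70.6% of spots per array were well above background and 0 were saturated. Treatment separated the 8 E2 arrays from the 8 PLB arrays along a first principal component with 71.8% of the variance. On the second component, with 5.12%, WT PLB replicate 2 and Arg260 PLB replicate 3 lay apart from the rest. The progesterone receptor gene Pgr, known to respond to estrogen in uterus, rose with E2 by 2.37 in Arg260 (adjusted p = 8.01e-08) and by 2.12 in WT (adjusted p = 2.62e-07). Greb1, another estrogen target, rose by 4.30 in Arg260 and by 4.50 in WT. Ltf, the lactoferrin gene and also a known target in mouse uterus, had differences of 0.40 in Arg260 (adjusted p = 0.564) and 0.29 in WT (adjusted p = 0.685). Esr1, the receptor gene, fell by 0.35 in Arg260 (adjusted p = 0.00475) and had a difference of -0.036 in WT (adjusted p = 0.76). Its probe reads the amount of receptor RNA and does not check the genotype. Marker lists of uterine epithelium, stromal fibroblasts and smooth muscle had mean levels between 3.00 and 5.91 on every array, and some of these markers changed with E2. Of all genes, 33.6% were called higher and 30.7% lower with E2 in Arg260, and 31.9% and 31.7% in WT. The marker counts that follow are to be read beside these shares. Of 6 epithelial markers, 4 rose and 1 fell in Arg260, and 2 rose and 1 fell in WT, with Krt7 up by 2.42 in Arg260 and by 2.25 in WT. Of 6 stromal markers, 3 fell in each genotype, with Lum down by 1.56 in Arg260 and by 1.37 in WT. Of 5 smooth muscle markers, 1 rose in Arg260 and 3 rose in WT. Leukocytes also express this family. Summed over 5 leukocyte markers, the linear level was 14.6 to 20.7 in Arg260 E2, 15.4 to 89.6 in Arg260 PLB, 14.4 to 16.1 in WT E2 and 14.0 to 19.0 in WT PLB. The value of 89.6 belonged to Arg260 PLB replicate 3, and 0 of the 5 markers were called with E2 in either genotype. The SD of each marker was 0.99 to 1.38 in Arg260 PLB and 0.048 to 0.29 in the other groups, which widens the shared spread. The 0 calls therefore do not show that leukocyte RNA was unchanged by E2. Of 8 macrophage markers, 1 rose and 2 fell with E2 in each genotype. The same limit applies to some uncalled ones, such as Adgre1, with an SD of 2.20 in Arg260 PLB and 0.15 to 0.33 in the other groups. Of 6 endothelial markers, 2 rose and 0 fell in Arg260, and 1 rose and 3 fell in WT. Of 6 adipocyte markers, 2 fell with E2 in Arg260 and 6 in WT, with summed linear levels of 3.13 to 39.1 in Arg260 E2, 20.0 to 69.2 in Arg260 PLB, 0.495 to 16.8 in WT E2 and 37.9 to 119.6 in WT PLB. Lep was among the falls of both genotypes. It was well above background on 1 of 4 Arg260 PLB arrays, 3 of 4 WT PLB arrays and 0 E2 arrays. It passed the filter of 4 arrays well above background only through PLB arrays, so its place in these counts is not independent of that filter. The part of any of these cell types in the results below was not tested beyond leaving out arrays. In RNA from whole tissue, fewer cells of a type and less RNA per cell cannot be told apart.

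For 3 members the sequence read by the probe is shown, because it lies in the coding part of the transcript and gives the part of the RNA that was read. The Nfkb1 and Nfkb2 probes read the 3' part of the coding region, which encodes the inhibitory part of the precursors p105 and p100, and the Nfkbia probe reads the end of the IkappaB-alpha coding region. The arrays read RNA, so the amounts of these proteins and the processing of the precursors were not measured. Positions are those of the array file on mouse build mm9, and the Nfkb2 and Nfkbia probes span longer genomic intervals than their own length.
Nfkb1, chr3:135254550-135254609, minus strand: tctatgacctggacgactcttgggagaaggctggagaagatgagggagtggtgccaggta
Nfkb2, chr19:46386146-46386285, plus strand: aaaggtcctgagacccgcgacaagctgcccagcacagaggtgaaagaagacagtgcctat
Nfkbia, chr12:56590945-56591440, minus strand: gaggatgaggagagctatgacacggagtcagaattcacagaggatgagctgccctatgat

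With E2, 9 of the 9 measured members were higher in Arg260 and 8 of 9 were higher in WT, and 0 fell in either genotype. Among all genes, 33.6% were called higher with E2 in Arg260 and 31.9% in WT, with 64.3% and 63.6% called in either direction. The median difference of the 9 members was 0.85 in Arg260 and 0.67 in WT, against medians over all genes of 0.017 in Arg260 and -0.023 in WT. Bcl3 had by far the largest rise, with folds of 7.53 in Arg260 and 8.65 in WT. The other called members rose by 1.30-fold to 2.43-fold in Arg260 and by 1.20-fold to 1.98-fold in WT. E2 and PLB arrays overlapped for Nfkbiz in Arg260 and for Nfkbie in WT. How many of all genes were free of overlap was not counted, so separation below only describes each gene.

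**Figure D1:**
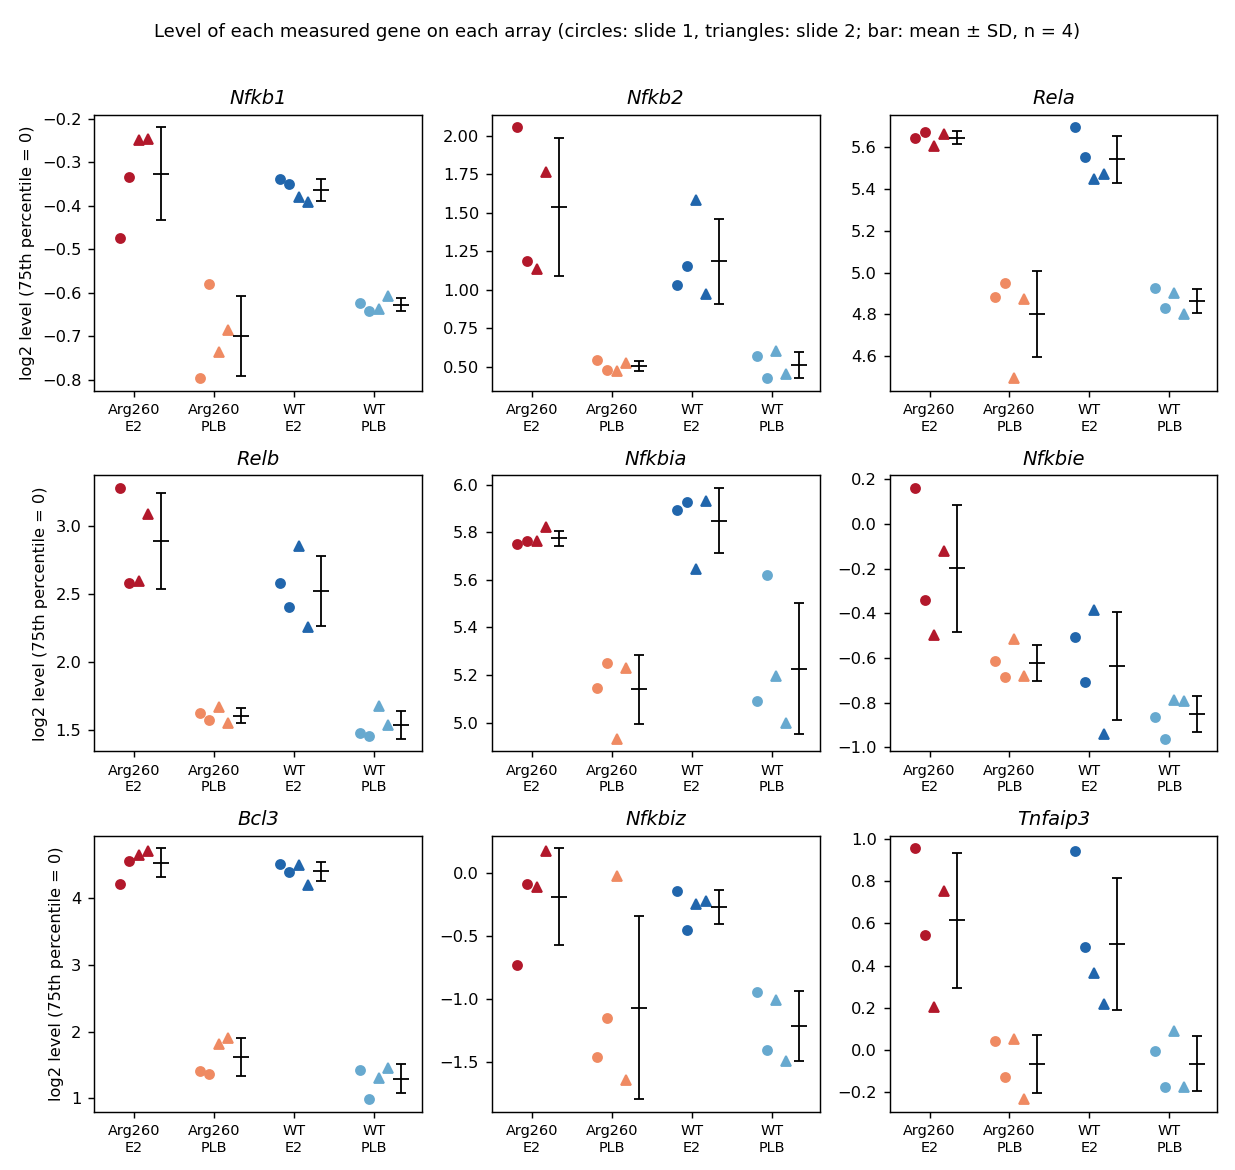
Log2 level of the 9 measured members on each array (75th percentile of the array = 0), with groups from left to right Arg260 E2, Arg260 PLB, WT E2 and WT PLB; circles are slide 1, triangles slide 2, and the bar is the mean ± SD of 4 arrays. Bcl3 lies between 4.20 and 4.70 on the E2 arrays and between 0.98 and 1.90 on the PLB arrays.

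Rela encodes p65, the main transcription-activating subunit. Its levels were 5.64, 5.67, 5.61 and 5.67 in Arg260 E2, against 4.88, 4.95, 4.49 and 4.87 in Arg260 PLB. In WT they were 5.70, 5.55, 5.45 and 5.47 with E2, against 4.93, 4.83, 4.90 and 4.80 with PLB. Every E2 array was above every PLB array, and the lowest was Arg260 PLB replicate 3. Rela rose by 0.85 ± 0.09 (SE, adjusted p = 1.26e-06) in Arg260 and by 0.68 ± 0.09 (adjusted p = 1.27e-05) in WT. The rise depended on the scaling for its size: after quantile normalisation it was 0.37 in Arg260 and 0.28 in WT, and in the authors' deposited table, 0.37 in Arg260 and 0.25 in WT, with the gene called each time.

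Relb encodes the activating partner of p52 in the alternative branch of the pathway. Its levels were 3.28, 2.58, 2.60 and 3.09 in Arg260 E2, against 1.63, 1.57, 1.67 and 1.55 in Arg260 PLB. With E2 the WT levels were 2.58, 2.40, 2.85 and 2.26, against 1.48, 1.45, 1.68 and 1.54 with PLB. The E2 arrays were spread over a wider range than the PLB arrays, and no PLB array came near the lowest E2 array. Relb rose by 1.28 ± 0.15 (SE, adjusted p = 3.8e-06) in Arg260 and by 0.99 ± 0.15 (adjusted p = 5.33e-05) in WT. After Bcl3 it had the largest rise of the family, and 9.67% of all genes rose by more in Arg260 and 14.2% in WT. Relb was read by 3 probes, and a probe-level fit to all 38678 probes gave 1.22 in Arg260 (adjusted p = 1.83e-05) and 1.02 in WT (adjusted p = 9.82e-05) for the second, which overlaps the first by a few bases. The third lies elsewhere in the gene and was designed on a different transcript record. It read 0.16 in Arg260 (adjusted p = 0.262) and 0.16 in WT (adjusted p = 0.247).

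Rel encodes c-Rel, the subunit best known from lymphocytes. Its single probe was well above background on 0 of 4 arrays in each of the 4 groups, so no level, fold or test is given.

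Nfkb1 encodes p105, the precursor of the p50 subunit. Its levels were -0.47, -0.33, -0.25 and -0.25 in Arg260 E2, against -0.80, -0.58, -0.74 and -0.69 in Arg260 PLB. The WT arrays read -0.34, -0.35, -0.38 and -0.39 with E2, against -0.62, -0.64, -0.64 and -0.61 with PLB. The groups did not overlap, although the shift was the smallest of the called members in both genotypes. Nfkb1 rose by 0.37 ± 0.07 (SE, adjusted p = 1.45e-04) in Arg260 and by 0.26 ± 0.07 (adjusted p = 0.00253) in WT. The second probe of the gene, which lies downstream of the first on the transcript, did not pass the test. Its difference was 0.25 in Arg260 (adjusted p = 0.447) and -0.11 in WT (adjusted p = 0.761), with levels from -1.78 to -0.38 in Arg260 E2 alone. With both probes averaged, Nfkb1 was at 0.31 in Arg260 (adjusted p = 0.0545) and 0.08 in WT (adjusted p = 0.631), so its call rests on the coding probe. On slide 1 alone, with 2 arrays per group, that probe gave 0.28 in Arg260 (adjusted p = 0.076) and 0.29 in WT (adjusted p = 0.0743), and on slide 2 alone 0.46 in Arg260 (adjusted p = 0.018) and 0.24 in WT (adjusted p = 0.133).

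**Figure D2:**
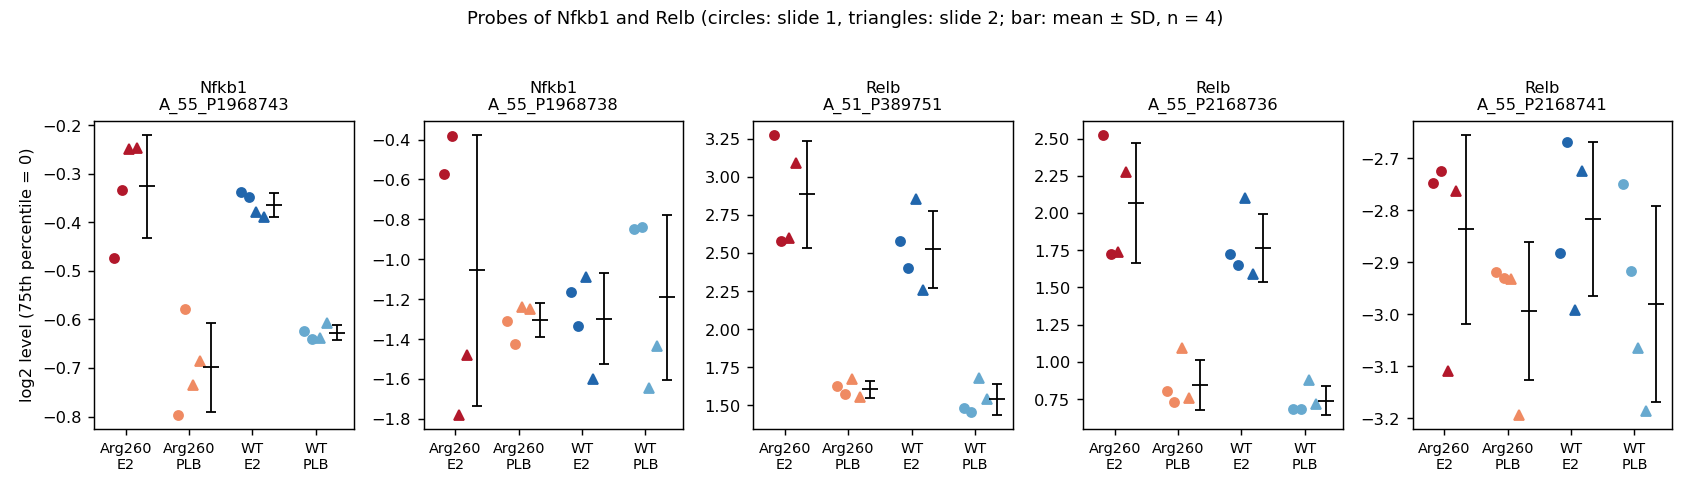
Log2 level (75th percentile of the array = 0) of the 2 probes of Nfkb1 and the 3 probes of Relb on each array, by group, with circles for slide 1, triangles for slide 2 and the mean ± SD of 4 arrays as a bar. The first Nfkb1 probe and the first 2 Relb probes separate E2 from PLB arrays in both genotypes, and the other probes overlap.

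Nfkb2 encodes p100, which acts as an inhibitor until it is processed to the p52 subunit. Its levels were 2.05, 1.19, 1.13 and 1.76 in Arg260 E2, against 0.54, 0.48, 0.48 and 0.52 in Arg260 PLB. WT uteri had levels of 1.03, 1.15, 1.58 and 0.97 with E2, against 0.57, 0.43, 0.60 and 0.45 with PLB. The PLB arrays of both genotypes lay close together, and Arg260 E2 replicates 1 and 4 and WT E2 replicate 3 were the highest. Nfkb2 rose by 1.03 ± 0.18 (SE, adjusted p = 1.54e-04) in Arg260 and by 0.67 ± 0.18 (adjusted p = 0.00458) in WT. Within a slide, with 2 arrays per group, the WT difference was 0.59 (adjusted p = 0.116) on slide 1 and 0.75 (adjusted p = 0.0735) on slide 2.

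Among the IkappaB inhibitors that hold NF-kappaB in the cytoplasm, Nfkbia encodes IkappaB-alpha, the fast feedback inhibitor. Its levels were 5.75, 5.76, 5.76 and 5.82 in Arg260 E2, against 5.14, 5.25, 4.93 and 5.23 in Arg260 PLB. In WT they were 5.89, 5.93, 5.64 and 5.93 with E2, against 5.09, 5.62, 5.19 and 4.998 with PLB. The groups did not overlap, but in WT they nearly met, because WT E2 replicate 3 was low and WT PLB replicate 2 was high. Nfkbia rose by 0.64 ± 0.12 (SE, adjusted p = 3.06e-04) in Arg260 and by 0.62 ± 0.12 (adjusted p = 3.73e-04) in WT. With quantile normalisation the Arg260 difference was 0.19 (adjusted p = 0.15) and the WT difference 0.30 (adjusted p = 0.0264). In the authors' deposited table they were 0.15 in Arg260 (adjusted p = 0.244) and 0.30 in WT (adjusted p = 0.029).

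Nfkbie encodes IkappaB-epsilon, a slower inhibitor of the same class. Its levels were 0.16, -0.34, -0.50 and -0.12 in Arg260 E2, against -0.61, -0.68, -0.51 and -0.68 in Arg260 PLB. The WT levels were -0.51, -0.71, -0.39 and -0.94 with E2, against -0.86, -0.96, -0.79 and -0.79 with PLB. The Arg260 groups were just separate and the WT groups overlapped. Nfkbie rose by 0.42 ± 0.14 (SE, adjusted p = 0.0134) in Arg260, and in WT the difference was 0.22 ± 0.14 (adjusted p = 0.181), the only member difference that did not pass. On slide 2 alone the Arg260 difference was 0.29 (adjusted p = 0.352), and with each array scaled to its median the WT difference was 0.36 (adjusted p = 0.0422).

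Bcl3 and Nfkbiz encode atypical IkappaB proteins that work in the nucleus as partners of p50 or p52 on DNA. Bcl3 levels were 4.22, 4.56, 4.65 and 4.70 in Arg260 E2, against 1.40, 1.36, 1.82 and 1.90 in Arg260 PLB. In WT uteri the levels were 4.52, 4.40, 4.50 and 4.20 with E2, against 1.43, 0.98, 1.31 and 1.45 with PLB. The gap between the treatments was several times the spread within any group. Bcl3 rose by 2.91 ± 0.15 (SE, adjusted p = 7.12e-10) in Arg260 and by 3.11 ± 0.15 (adjusted p = 4.11e-10) in WT. Of all genes, 1.49% rose by more in Arg260 and 1.16% in WT.

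Nfkbiz encodes IkappaB-zeta, which is needed for a set of late inflammatory genes such as Il6 and Lcn2 in mouse macrophages. Its levels were -0.73, -0.088, -0.12 and 0.18 in Arg260 E2, against -1.46, -1.15, -0.023 and -1.64 in Arg260 PLB. With E2 the WT levels were -0.14, -0.46, -0.25 and -0.22, against -0.94, -1.41, -1.005 and -1.49 with PLB. The WT groups did not overlap, whereas Arg260 PLB replicate 3 reached the level of the E2 arrays. Nfkbiz rose by 0.88 ± 0.29 (SE, adjusted p = 0.0159) in Arg260 and by 0.94 ± 0.29 (adjusted p = 0.0107) in WT. The high array is the one with the raised leukocyte markers, whose part in the level was not tested. Without it the Arg260 rise was 1.23 (adjusted p = 1.18e-04), while the adjusted p was 0.0519 without Arg260 PLB replicate 1, 0.0565 without Arg260 PLB replicate 4 and 0.0502 without Arg260 E2 replicate 4. On slide 2 alone it was 0.86 in Arg260 (adjusted p = 0.222) and 1.01 in WT (adjusted p = 0.157).

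Tnfaip3 encodes A20, a ubiquitin-editing enzyme that shuts off signalling above the kinase complex. Its levels were 0.96, 0.55, 0.20 and 0.75 in Arg260 E2, against 0.041, -0.13, 0.050 and -0.23 in Arg260 PLB. The WT arrays read 0.94, 0.49, 0.36 and 0.22 with E2, against -0.0034, -0.18, 0.088 and -0.18 with PLB. The lowest E2 arrays lay just above the highest PLB arrays in both genotypes. Tnfaip3 rose by 0.68 ± 0.17 (SE, adjusted p = 0.00222) in Arg260 and by 0.57 ± 0.17 (adjusted p = 0.00767) in WT. On slide 2 alone the difference was 0.57 in Arg260 (adjusted p = 0.0893) and 0.34 in WT (adjusted p = 0.279).

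The members were also compared between genotypes, first after E2 and then without it. After E2, 0 of 9 members and 0 of 25858 genes (0%) were called between Arg260 and WT, although 1900 genes had an unadjusted p under 0.05. Nfkbie was nearest to a call among the members, with levels from -0.50 to 0.16 in Arg260 E2 and from -0.94 to -0.39 in WT E2, which overlap. Its difference was 0.44 with a 95% interval of 0.14 to 0.73 (unadjusted p = 0.00633, adjusted p = 0.527). Relb came next at 0.36, with an interval of 0.033 to 0.69 (unadjusted p = 0.0335, adjusted p = 0.65), and Nfkb2 at 0.35, with an interval of -0.038 to 0.74 (adjusted p = 0.706). The interval of Rela ran from -0.093 to 0.30 and that of Nfkbia from -0.33 to 0.19.

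With vehicle, 0 of 9 members and 0 of 25858 genes (0%) were called, with 638 genes at an unadjusted p under 0.05. The Bcl3 difference was 0.33, with an interval of 0.0016 to 0.65 (unadjusted p = 0.0491, adjusted p = 1), and its levels ran from 1.36 to 1.90 in Arg260 PLB and from 0.98 to 1.45 in WT PLB. The share of all genes whose vehicle groups did not overlap was not counted. Nfkbie levels ran from -0.68 to -0.51 in Arg260 PLB and from -0.96 to -0.79 in WT PLB, without overlap. Its difference was 0.23, with an interval of -0.063 to 0.52 (unadjusted p = 0.115, adjusted p = 1). Nfkbiz had the widest interval of the family, -0.48 to 0.77 around 0.14.

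The E2 response itself was compared between genotypes with the interaction term, and 0 of 9 members and 0 of 25858 genes (0%) were called. At an unadjusted p under 0.05 there were 962 genes. Among the members the largest difference of responses was 0.36 for Nfkb2, with an interval of -0.19 to 0.90 (adjusted p = 1), and Relb followed at 0.30, with an interval of -0.17 to 0.76 (adjusted p = 1). The Bcl3 response differed by -0.20, with an interval of -0.66 to 0.26. The interval of Nfkb1 was the narrowest, from -0.088 to 0.31, while that of Nfkbiz ran from -0.95 to 0.82.

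**Figure D3:**
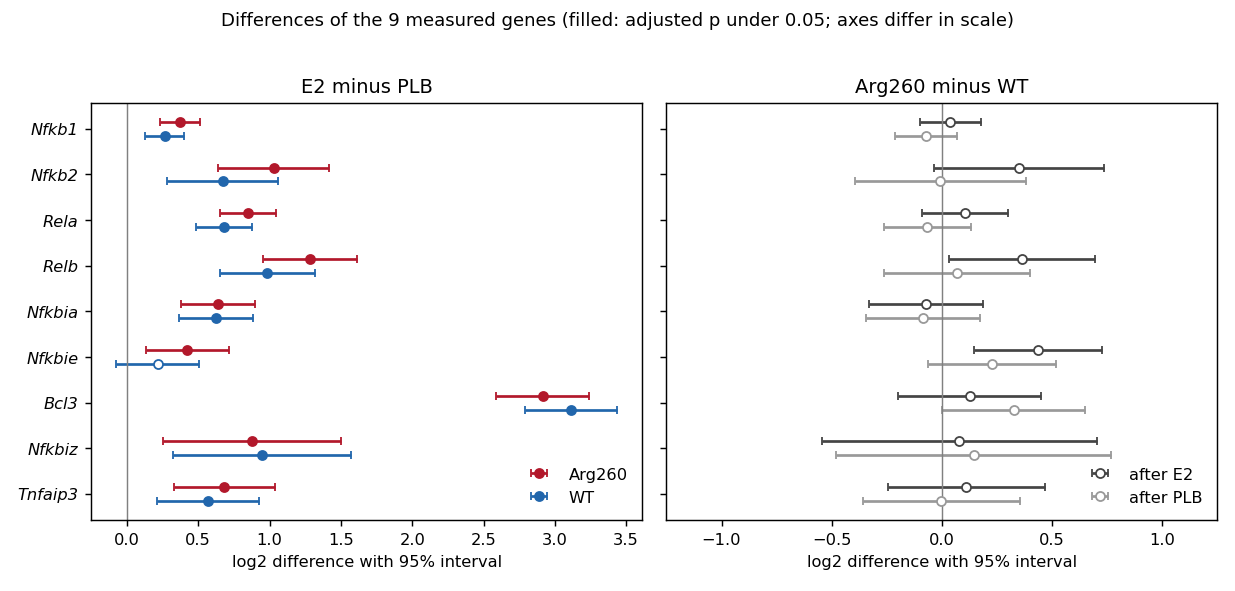
Log2 differences of the 9 measured members with 95% intervals from the fit to 16 arrays: E2 minus PLB on the left, in Arg260 (red) and WT (blue), and Arg260 minus WT on the right, after E2 (dark) and after PLB (light). Filled points had an adjusted p under 0.05. Only Nfkbie in WT is open on the left, and all points are open on the right.

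Some members moved together from array to array within a treatment by Pearson r, while no pair passed by Spearman rho. Over the 8 E2 arrays, Relb and Nfkbie had a Pearson r of 0.958 (exact permutation p = 2.23e-04, adjusted p = 0.0161) and a Spearman rho of 0.929 (exact permutation p = 0.00223, adjusted p = 0.0804). Relb and Nfkb2 had an r of 0.961 (exact permutation p = 5.21e-04, adjusted p = 0.0188) and a rho of 0.881 (exact permutation p = 0.00724, adjusted p = 0.104). Nfkb2 and Nfkbie had an r of 0.890 (exact permutation p = 0.00119, adjusted p = 0.0286) and a rho of 0.905 (exact permutation p = 0.00456, adjusted p = 0.104). The p-values were adjusted over 72 relations, all pairs of the 9 members in each treatment. The permutations pooled both genotypes, and these 3 genes had the largest member differences between genotypes after E2. Within a genotype, with 4 arrays and no test, r was 0.95 in Arg260 and 0.96 in WT for Relb and Nfkbie. It was 0.996 in Arg260 and 0.865 in WT for Relb and Nfkb2, and 0.973 in Arg260 and 0.734 in WT for Nfkb2 and Nfkbie. Arg260 E2 replicates 1 and 4 were the highest arrays for all 3 genes, and WT E2 replicate 3 came next for Relb and Nfkb2 but not for Nfkbie. These arrays also had the highest mean log2 level of the 6 epithelial markers among the E2 arrays. It was 4.23 on Arg260 E2 replicate 1, 3.85 on Arg260 E2 replicate 4 and 4.00 on WT E2 replicate 3. The other E2 arrays had 3.48 to 3.805, and the part of epithelial content in these relations was not tested. Without the 2 arrays farthest from the median of Nfkbie, Relb and Nfkbie had an r of 0.894. Without the 2 arrays farthest from the median of Nfkb2, r was 0.835 with Relb and 0.601 with Nfkbie, so the last relation rested in part on those arrays. Slides held 4 E2 arrays each, too few for a test, and no value was computed within a slide. Of all pairs, Bcl3 and Nfkb1 over the 8 E2 arrays had the highest rho, 0.952 (exact permutation p = 0.00114, adjusted p = 0.0804). Their r was 0.888 (exact permutation p = 0.00466, adjusted p = 0.0839), so this pair did not pass. Over the 8 PLB arrays no pair passed, and Relb and Nfkbie came nearest with an r of 0.745 (exact permutation p = 0.035, adjusted p = 0.338).

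**Figure D4:**
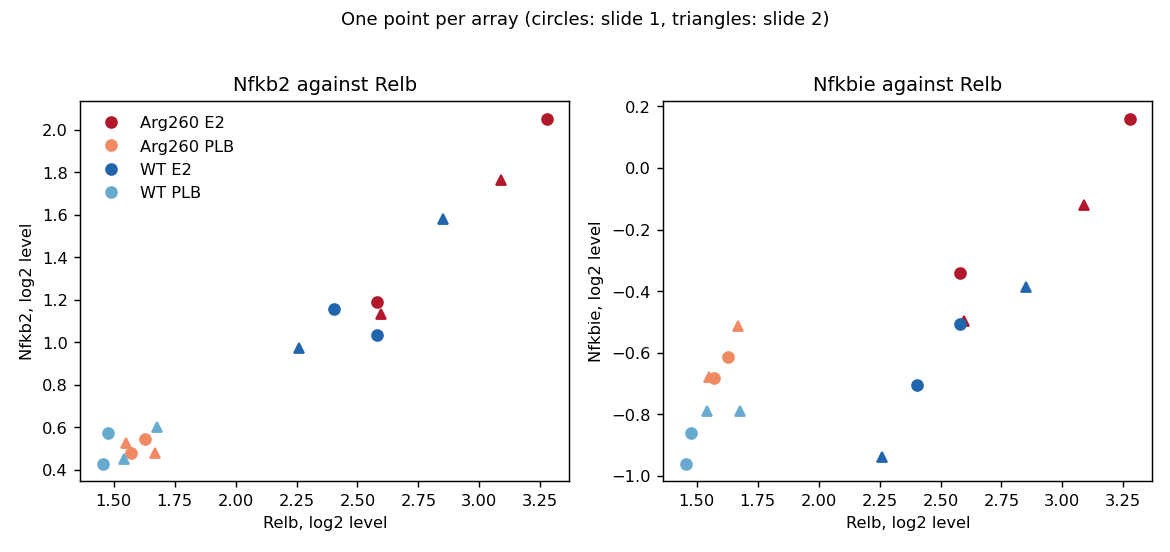
Log2 level of Nfkb2 (left) and Nfkbie (right) against that of Relb, 1 point per array, coloured by group with circles for slide 1 and triangles for slide 2. The E2 arrays run along a rising line in both panels, with an r of 0.961 and 0.958. The PLB arrays lie at low Relb, in a tight cluster for Nfkb2 and with Arg260 above WT for Nfkbie.

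Genes whose profile over the 16 arrays was most like that of a member were found by the smallest root mean square difference between mean-centred profiles, among 15961 genes with an official symbol and a value on every array. For Bcl3 they were Dsc2 (0.16) and Nop58 (0.17), for Relb Prpf31 (0.11) and Abhd2 (0.13), and for Rela Edc4 (0.063) and Pdcd7 (0.065). Nfkb1 lay closest to Zw10 and Virma (0.056 each), Nfkb2 to H2az1 (0.15) and Lman2 (0.16), and Nfkbia to Ugp2 (0.11) and Prr14 (0.12). Nfkbie lay closest to Nsmce1 (0.12) and Fbxw17 (0.13), Tnfaip3 to Malsu1 and Ptbp3 (0.15 each), and Nfkbiz to Tnfrsf1b (0.26) and Fut7 (0.27). Distances were not scaled to the spread of the member's own profile, which was 0.17 for Nfkb1 and 0.60 for Nfkbiz. Tnfrsf1b, which encodes the second TNF receptor, is the one pathway gene among them. Tnfrsf1b and Nfkbiz were both most spread in Arg260 PLB, with SDs of 0.55 and 0.73. That group holds the array with the raised leukocyte markers, whose part in the likeness was not tested.

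The start of 7 of the 10 genes was found in a RefSeq table of promoters on build GRCm38.p6, each running from 250 bases before the start site to 50 after it. Rela, Rel, Nfkb2, Nfkbia, Nfkbie, Tnfaip3 and Bcl3 were matched, and Nfkb1, Relb and Nfkbiz were not. A match to the 10-base kappaB consensus, the site that NF-kappaB binds, was searched on both strands with overlapping matches merged, and it was present in 6 of the 7 genes. Over the whole table, 1480 of 32851 promoters (4.51%) and 1388 of 27025 genes (5.14%) held one. These genes had 10 promoters in the table, 8 of them with a match, since Nfkb2 and Tnfaip3 have several start sites. One window per gene is shown, because several of these genes are known targets of NF-kappaB, with the 130 bases before the start site in lower case and kappaB matches in capitals. For Bcl3, whose match lies at 3 to 12 bases from the start site inside the transcript, 30 bases around it are given.
Rela, chr19:5637411-5637540, plus strand: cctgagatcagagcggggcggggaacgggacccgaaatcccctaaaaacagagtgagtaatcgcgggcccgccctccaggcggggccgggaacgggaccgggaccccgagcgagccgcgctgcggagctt
Rel, chr11:23770970-23771099, minus strand: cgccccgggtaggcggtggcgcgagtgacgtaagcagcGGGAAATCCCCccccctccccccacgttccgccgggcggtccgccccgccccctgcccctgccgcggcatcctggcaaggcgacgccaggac
Nfkb2, chr19:46304607-46304736, plus strand: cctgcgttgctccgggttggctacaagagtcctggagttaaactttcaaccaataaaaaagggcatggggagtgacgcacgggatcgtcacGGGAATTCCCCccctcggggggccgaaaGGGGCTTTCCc
Nfkbia, chr12:55492648-55492777, minus strand: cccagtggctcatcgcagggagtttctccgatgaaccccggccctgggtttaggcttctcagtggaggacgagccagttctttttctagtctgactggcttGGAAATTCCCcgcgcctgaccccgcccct
Nfkbie, chr17:45555570-45555699, plus strand: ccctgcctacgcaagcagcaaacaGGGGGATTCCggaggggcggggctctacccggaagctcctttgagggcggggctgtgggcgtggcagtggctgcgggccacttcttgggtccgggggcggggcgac
Tnfaip3, chr10:19015411-19015540, minus strand: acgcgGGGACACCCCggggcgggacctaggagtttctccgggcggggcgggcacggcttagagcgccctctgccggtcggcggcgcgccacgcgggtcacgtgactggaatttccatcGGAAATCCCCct
Bcl3, chr7:19822734-19822763, minus strand: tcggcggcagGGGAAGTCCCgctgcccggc

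In these windows the match of Nfkbia ended 20 bases before the start site and the nearer matches of Nfkb2 and Tnfaip3 ended 2 and 3 bases before it. Those of Nfkbie and Rel ended 97 and 82 bases before it, and the Rela promoter held no match to these letters. The full estrogen response element GGTCANNNTGACC, which reads the same on both strands, was in 23 promoters of the table (0.0700%) and in 0 of the 10 promoters of these genes. A match describes letters in a window and says nothing of binding in this tissue.

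Other genes of the pathway were grouped by role and counted in the same fit. Of 91 such genes tested, 42 rose and 19 fell with E2 in Arg260, and 42 rose and 26 fell in WT. The median difference was 0.20 in Arg260 and 0.12 in WT, against medians over all genes of 0.017 in Arg260 and -0.023 in WT. Of all genes, 33.6% rose and 30.7% fell in Arg260, and 31.9% rose and 31.7% fell in WT.

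Among 9 ligands tested, 2 rose and 5 fell in Arg260, and 3 rose and 5 fell in WT. Il1b, which encodes the inflammatory cytokine interleukin-1 beta, rose by 1.80 in Arg260 (adjusted p = 0.0189) and by 1.90 in WT (adjusted p = 0.0142). Tnf had a difference of 0.92 in Arg260 (adjusted p = 0.0949) and rose by 1.65 in WT (adjusted p = 0.00604), where it was well above background on 2 of 4 PLB arrays. Il33, the alarmin interleukin-33, fell by 1.39 in Arg260 (adjusted p = 1.43e-04) and by 1.78 in WT (adjusted p = 1.33e-05). Tnfsf12, the gene of the cytokine TWEAK, fell by 1.08 in both genotypes. Without WT E2 replicate 3 the ligands that fell in WT numbered 3, and without Arg260 PLB replicate 2 those that rose in Arg260 numbered 1.

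Of 12 receptors, 4 rose and 5 fell in Arg260, and 4 rose and 6 fell in WT. Tnfrsf12a, the receptor for TWEAK, rose 17.5-fold in Arg260 (adjusted p = 1.04e-09) and 19.1-fold in WT (adjusted p = 8.02e-10). Ltbr, the lymphotoxin beta receptor that feeds the alternative branch, rose by 1.56 in Arg260 and by 1.63 in WT. The Toll-like receptors named by rule went the other way: Tlr4, the receptor for bacterial lipopolysaccharide, fell by 1.54 in Arg260 and by 1.89 in WT, and Tlr3, the receptor for double-stranded RNA, fell by 1.14 in Arg260 and by 1.48 in WT.

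Of 15 adaptors and ubiquitin ligases, 4 rose and 4 fell in Arg260, and 4 rose and 6 fell in WT. Myd88, the adaptor of Toll-like and interleukin-1 receptors, rose by 1.63 in Arg260 and by 1.46 in WT. Traf3, which keeps the kinase of the alternative branch low, rose by 0.79 in Arg260 and by 0.91 in WT. Traf5 fell by 1.17 in Arg260 and by 1.18 in WT, and the ubiquitin ligase gene Birc2 fell by 0.70 in Arg260 and by 0.76 in WT. With quantile normalisation, and likewise in the authors' deposited table, 8 genes of this list fell in Arg260. Of 14 kinases and scaffold genes, 7 rose and 3 fell in Arg260, and 6 rose and 4 fell in WT. Map3k14, the kinase NIK that starts p100 processing, rose by 1.60 in Arg260 and by 1.78 in WT. Chuk, the IKK-alpha gene, rose by 1.49 in Arg260 and by 1.39 in WT. Ikbke fell by 1.99 in Arg260 and by 1.81 in WT, and Map3k8, the kinase bound by p105, fell by 1.32 in Arg260 and by 1.58 in WT.

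Of 15 further inhibitors, 9 were called higher and 0 lower in each genotype, with medians of 0.58 in Arg260 and 0.63 in WT. Among the uncalled was Cyld, with a difference of -1.67 in Arg260 (limma, adjusted p = 0.405). Its SD was 0.093 in Arg260 E2 and 0.15 in Arg260 PLB. In WT PLB, where it was well above background on 3 of 4 arrays, its SD was 5.16, which widens the shared spread. Irak3, a decoy kinase that dampens Toll-like receptor signals, rose 6.59-fold in Arg260 (adjusted p = 1.2e-06) and 6.01-fold in WT (adjusted p = 2.07e-06). Nfkbib, the gene of IkappaB-beta, rose by 1.17 in Arg260 and by 0.94 in WT. Without WT PLB replicate 2, 1 of these inhibitors was called lower in each genotype, and without Arg260 E2 replicate 3, 1 was called lower in Arg260. With quantile normalisation 2 were called lower in WT, and the authors' deposited table gave 1 lower in Arg260 and 2 lower in WT.

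Of 26 genes known as NF-kappaB targets, 16 rose and 2 fell in Arg260, and 16 rose and 5 fell in WT, with medians of 1.20 in Arg260 and 1.16 in WT. Sele, the endothelial adhesion molecule E-selectin, was well above background on all E2 arrays and on 0 of 4 PLB arrays of each genotype. It was at least 9.06-fold higher with E2 in Arg260 (adjusted p = 2.08e-09) and at least 9.05-fold higher in WT (adjusted p = 2.51e-09). Here the bound set the E2 mean against the lowest signal well above background on each PLB array, or the probe's own where that was higher. Sele and Cxcl2 were well above background on no PLB array and passed the filter only through E2 arrays, so their tests and their place in these counts are not independent of the filter. Cxcl5 and Il6, well above background on at most 1 of 4 PLB arrays of a genotype, also needed E2 arrays to pass it, so the same limit applies. Csf2, named below, needed PLB arrays in the same way. With no filter, 16 targets rose in each genotype, with medians of 1.19 in Arg260 and 0.92 in WT. Cxcl5, a chemokine for neutrophils, was called higher in Arg260 (adjusted p = 2.73e-06), where 1 of 4 PLB arrays measured it and no size is given, and was at least 11.6-fold higher in WT (adjusted p = 3.29e-06). Mmp9, a matrix protease, fell by 2.06 in Arg260 and by 2.12 in WT. Csf2, the growth factor GM-CSF, was at least 1.63-fold lower with E2 in Arg260 (adjusted p = 0.00102) and was called lower in WT (adjusted p = 0.00444), where 1 of 4 E2 arrays measured it and no size is given. In the authors' deposited table the target median was 0.66 in Arg260 and 0.79 in WT, with 5 falls in Arg260. The WT count of falls was 3 without WT E2 replicate 1 or without WT E2 replicate 4. Neutrophils carry many of these transcripts. Of 5 neutrophil markers tested, 2 rose in each genotype, against 33.6% of all genes in Arg260 and 31.9% in WT. Ly6g rose by 1.60 in Arg260 and 1.38 in WT. S100a8, the other one, rose by 1.62 in Arg260 (adjusted p = 0.00883) and by 1.21 in WT (adjusted p = 0.0407). The median difference of the 5 markers was 1.49 in Arg260 and 1.21 in WT. Their mean log2 level was -0.96 to -0.31 in Arg260 E2, -2.13 to -1.40 in Arg260 PLB, -1.15 to 0.92 in WT E2 and -1.65 to -0.59 in WT PLB. Their summed linear level was 152 to 181 in Arg260 E2, 154.0 to 181 in Arg260 PLB, 159 to 190.0 in WT E2 and 159 to 189 in WT PLB, a sum carried by the bright Csf3r probe, whose differences were 0.00092 in Arg260 and -0.051 in WT. The part of neutrophils in the target differences was not tested.

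**Figure D5:**
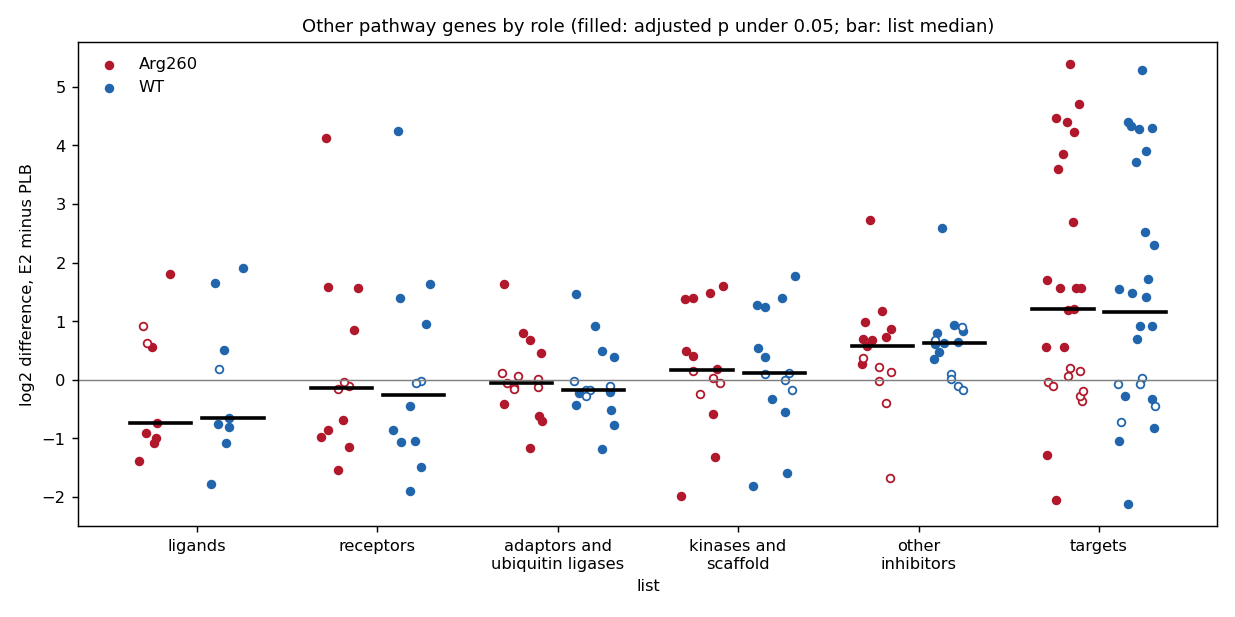
Log2 difference, E2 minus PLB, of 91 pathway genes grouped by role, with Arg260 in red left of WT in blue; filled points had an adjusted p under 0.05 and bars are list medians. Targets and other inhibitors have medians above 0 and ligands below 0 in both genotypes, although the ligand median in WT is 0.012 when no filter on dim probes is used, and each list except the other inhibitors holds called genes in both directions.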

How the data were processed

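Uterine RNA of the 16 samples was measured as spot intensities, which the authors read from the array scans with Agilent Feature Extraction (version 10.10.1.1 in the file headers) and deposited unnormalised between arrays. Per the file headers, the processed signal had its background subtracted. Per the labels' protocols, 200 ng of total RNA per sample was labelled with Cy3. The series table that the authors also deposited is on a log2 scale and covers 37585 probes; limma is named in the submitters' processing notes. How its background was corrected is not given in the sources used here, and it served as an alternative.

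The 16 arrays lay on 2 slides of 8, with 2 arrays of each group per slide. The processed signal was put on a log2 scale minus the log2 75th percentile of each array. Spots flagged as outliers were left out, and no spot of a member was flagged. Probes well above background on at least 4 of 16 arrays were kept (38678), and the probe with the highest mean stood for each of 25858 genes. Names came from RefSeq through the accession for 27325 probes, the symbol for 3523 and a synonym for 551. The other 24282 probes have the array's own, possibly outdated, name. All arrays entered 1 limma model of group means (limma 3.58.1 and R 4.3.3, lmFit and eBayes, two-sided tests, 12 residual degrees of freedom and a prior worth 1.97). Adjustment was by Benjamini-Hochberg over all genes. Precision is limited by how many arrays each group has.

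The members, the pathway lists and the marker lists were chosen with earlier results of these data known. All members are named. Each pathway list is illustrated by the 2 strongest rises and the 2 strongest falls in WT among its called genes. Cxcl2, Il6, Cyld and the marker and hormone-response genes named were chosen after their values were seen. Alternatives covered scaling, background, filters, the probe rule, the slide, a replicate block and each array left out in turn.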

Additional observations from a re-analysis of the deposited data

Results flagged for a closer look

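In 36 sets of 4 arrays (9 members in 4 groups), 2 arrays lay farther from the other 3 of their group than Dixon's 95% limit, where chance alone flags about 1 set in 20. Rela on Arg260 PLB replicate 3 was at 4.49, against 4.87 to 4.95 on the other 3 arrays of that group. Without that array, Rela rose by 0.75 in Arg260 (limma, adjusted p = 5.68e-07), against 0.85 with it. Nfkbia on WT E2 replicate 3 was at 5.64, against 5.89 to 5.93 on the other 3.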

How the results depend on the processing

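Under 30 alternatives, the E2 difference of all 9 members stayed above 0 in both genotypes, although that of Nfkbie in WT was called in 1 of the 30. Of 270 values per genotype, 10 lost their call in Arg260, and 7 lost and 1 gained it in WT. The members called ranged from 6 to 9 in Arg260 and from 4 to 9 in WT. The count of 4 came from slide 2 alone, where 6 were called in Arg260, and slide 1 alone gave 8 in Arg260 and 6 in WT (fewer arrays). Of 25858 genes, slide 2 alone called 11225 in Arg260 and 11383 in WT. In WT the 4 of 9 members was close to the share of all genes called in either direction. The member calls were all rises, while 51.8% of those genes were called higher in WT and 53.9% in Arg260. Slide 1 alone called 14499 genes in Arg260 and 13882 in WT. With both arrays that lie apart on the second component left out, an alternative chosen after seeing the data, 9 members were called in Arg260 and 8 in WT. The genes called there were 16253 in Arg260 and 16093 in WT. Between genotypes after E2, the genes called were 1 with quantile normalisation, 2 with normexp, 2 in the series table and 2 with a trended robust prior, against 0, and 0 to 2 with one array left out (2 without Arg260 E2 replicate 3, 1 without WT PLB replicate 3); 0 members were called in any, and the cause was not tested. Uncalled values changed sign 17 times in the interaction, 22 times between genotypes with PLB and 6 times after E2, out of 270 each. Scaling to the array median moved the median of all genes to 0.15 in Arg260 and 0.12 in WT. Of 1080 counts and medians of the pathway lists under the alternatives, 48 moved beyond the limits used, among them the ligand median in WT, which was 0.012 without a filter against -0.65. Same-numbered arrays did not deviate together (r from -0.11 to 0.26, 3 of 24 pairs over 0.1, and 5 of 16 arrays correlated best with their own number), so the numbers were not taken as pairs. The replicate block left 9 members called in Arg260 and 8 in WT, with 16673 and 16394 genes.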
